A study of Sus scrofa with 6 samples.

Results

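The genes described here encode the proteins of the cytosolic ribosome and the factors that start and extend protein synthesis on it. A row of the expression table was taken as a member when its pig Ensembl identifier carried a symbol starting with RPL, RPS (RPS6K kinases left out), EIF or EEF. This gave 69 of the 28266 rows, of which 28 were ribosomal protein genes (13 of the large and 15 of the small subunit), 36 were initiation factor genes and 5 were elongation factor genes. Regulators and relatives that share the prefix, such as the eIF2 kinases, the eIF4E-binding protein and EEF2K, were counted in their class and are also described apart. Many core genes, among them RPL3, RPLP0, RPS6, EEF1A1, EEF1A2 and EIF5A, were not analysed here, so the counts below cover a sample of each class.

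Satellite cells are the stem cells of skeletal muscle, whose progeny fuse into myotubes. Those of the pig (PSCs) came from limb muscles of 3-day-old male Yorkshire pigs and received negative control (NC) siRNA before differentiation in medium with horse serum. They were harvested at 24 h (NC24h, 3 libraries) and 36 h of differentiation (NC36h, 3 libraries), and the libraries carry the replicate numbers 4, 5 and 6 in either group. In the labels of the single samples the later time reads 48 h, but the title of the series has 36 h. The NC siRNA was inferred from the letter N of the library titles. Total RNA was sequenced, and the values are FPKM, that is, fragment numbers corrected for the length of the gene and the size of the library. Libraries of H19 siRNA cells are not analysed here. The labels do not say that the libraries of a group came from separate cultures or animals, so p-values measure only the spread between these libraries.

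A ribosome is built from a small subunit, which decodes the mRNA, and a large subunit, which joins the amino acids. Initiation factors (eIF) bring the mRNA, the initiator tRNA and the subunits together, and elongation factors (eEF) then deliver each aminoacyl-tRNA and move the ribosome along. In mammals the mRNAs of ribosomal proteins and of several elongation and initiation factors begin with a pyrimidine tract, the TOP motif, through which the kinase complex mTORC1 and the protein LARP1 control their translation and stability. Muscle precursors that leave the cell cycle to form myotubes are known to lower the making of new ribosomes.

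The 6 libraries held between 16250222 and 21723087 fragments, as recovered from the FPKM values. Of the 14060 genes whose mean FPKM reached 1, 34.4% were lower and 16.5% higher at NC36h at a limma adjusted p under 0.05 on log2(FPKM + 1). The median log2 change of all these genes was -0.16. After median-ratio scaling, which sets the middle of the genes level between libraries, it was -0.0058, with 22.3% of genes lower and 23.9% higher. In 42.6% of the genes all NC36h values lay below all NC24h values. These shares are the background for the counts of members below. The 8 muscle markers found of 13 listed were above an FPKM of 1 in every library, with a summed FPKM of 4349 to 6971 at NC24h and 13260 to 14600 at NC36h, although the extraction label names endometrium. Of these genes 6 were higher at NC36h without overlap, while the precursor genes overlapped, MYOD1 with 255, 306 and 386 FPKM at NC24h and 246, 258 and 258 at NC36h, and MYF5 with 66.9, 75.4 and 112 and then 52.9, 52.6 and 74.2. The 6 fibroblast markers found of 9 summed to 930 to 1001 at NC24h and 825 to 1030 at NC36h, with PDGFRA under 1 throughout. Within that sum COL3A1 was higher at NC36h without overlap, and the other 5 genes were lower without overlap, among them COL1A2 (633, 674 and 773 FPKM, then 495, 428 and 429) and DCN (18.8, 19.0 and 18.5, then 5.09, 6.37 and 6.89). The summed level of the 2 endothelial markers found of 4 was at most 1.67 with KDR at 0, that of the 3 immune markers at most 2.44 with PTPRC at 0, and the 1 adipocyte marker found of 3, PLIN1, reached 0.0773. In RNA from bulk cells, fewer cells of a type and less RNA per cell cannot be told apart.

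Of the 69 members, 66 passed the FPKM minimum and were tested, and 41 were lower and 2 higher at NC36h. The 41 made up 62.1% of the members tested, against the 34.4% of all genes. The median log2 change was -0.34 over the members and -0.16 over all genes, and 45 of the 66 members lay below the median of all genes. After median-ratio scaling 29 members were lower and 7 higher (background 22.3% and 23.9%), and 29 of the 41 genes called lower remained so. The 3 values of NC36h lay below the 3 values of NC24h in 46 of the 66 members tested, against 42.6% of all genes. No called member had groups that overlapped, but the calls rest on the same values. The changes were of moderate size, since no member was lower by 1 or more on the log2 scale. The 3 members not tested were RPL10L, listed at 0 in every library, EIF4E1B, above 0 in 1 library only, and EIF3G, with FPKM values from 0.0703 to 0.185 and only 14 fragments at NC24h and 28 at NC36h in all.

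**Figure D1:**
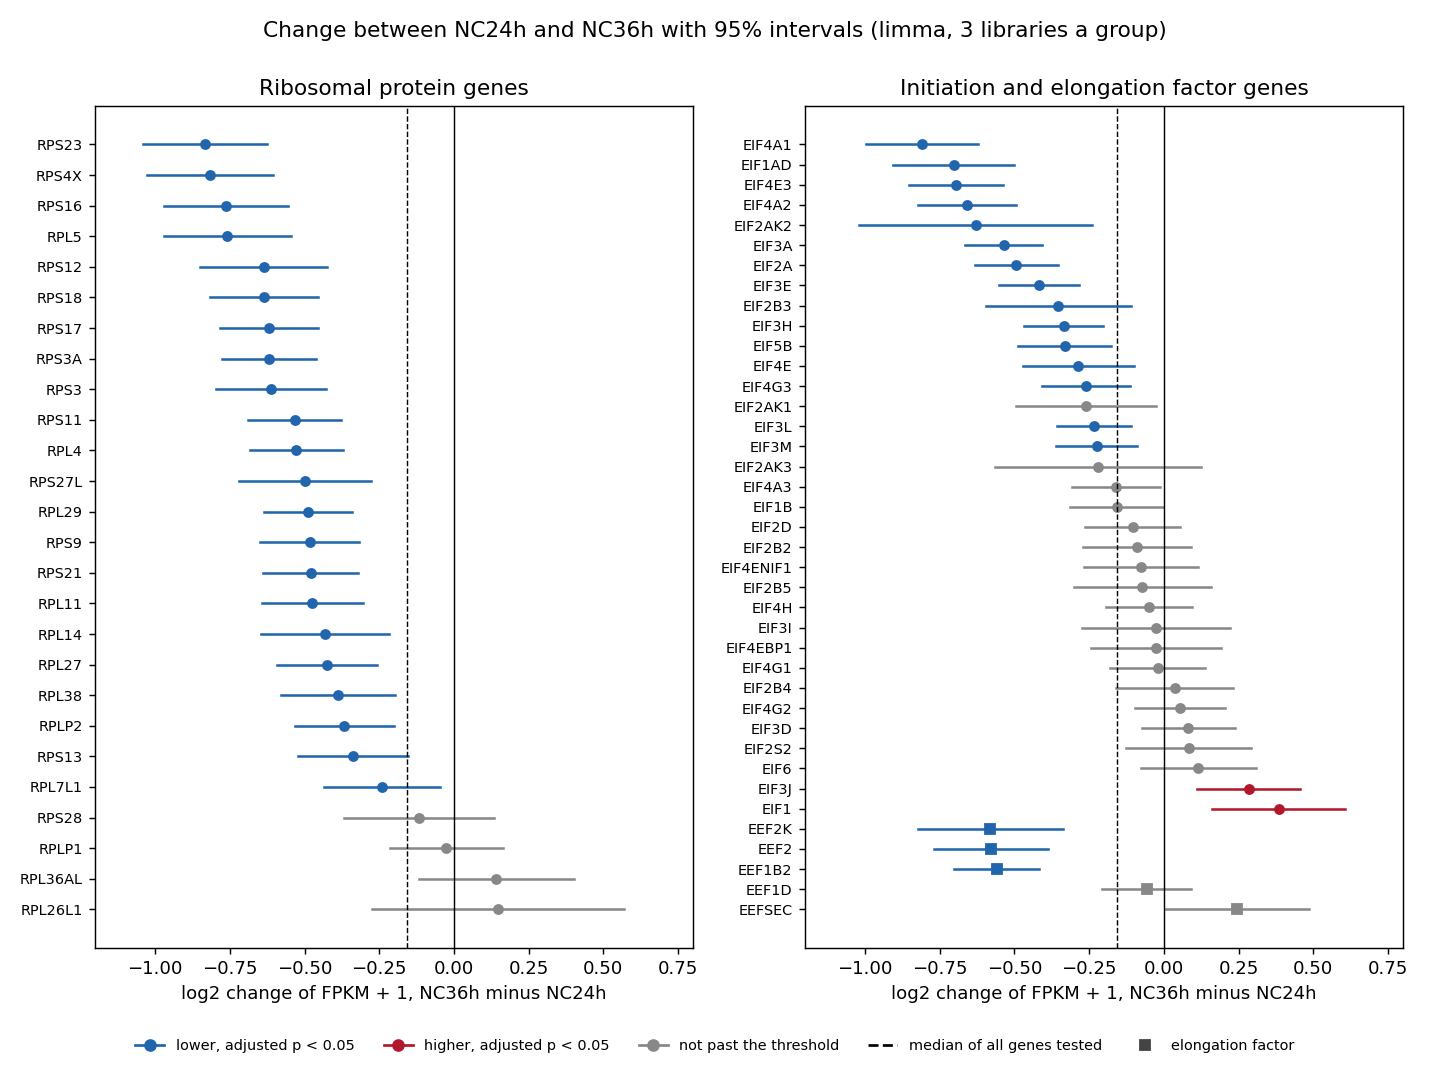
Log2 change at NC36h minus NC24h on the log2(FPKM + 1) scale for 65 of the 66 members tested, by class, with 95% intervals from limma, colours for the call and squares for elongation factors; a dashed line marks the median change of all genes, -0.16. Most ribosomal protein genes lie left of that line, while initiation factor genes reach from -0.81 to 0.38.

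Most ribosomal protein genes were lower at NC36h than at NC24h. Of the 27 tested, 23 were lower and 0 were higher by limma, and 25 had a negative estimate. No gene was higher when p was left unadjusted (0 of 27 under 0.05), and limma voom on the recovered fragments called 0 higher as well. The 23 are 85.2% of the class against 34.4% of all genes, and their NC36h levels were 56.1% to 84.1% of the NC24h levels. The median log2 change was -0.48. After median-ratio scaling it was -0.31, with 18 genes lower and 1 higher, against 22.3% and 23.9% of all genes. The class gave 4.15%, 4.27% and 4.42% of the FPKM sum in the NC24h libraries and between 2.997% and 3% in each NC36h library. As a share of fragments, which favours long genes, this was 1.87% ± 0.07 at NC24h and 1.30% ± 0.01 at NC36h (SD, n = 3). The groups did not overlap on either measure.

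Within NC24h the libraries differed among themselves. Replicate 6 held the highest value of 20 of the 27 ribosomal protein genes and replicate 4 the lowest of 19. The median log2 level of these genes, relative to the mean of each gene, was 0.21, 0.24 and 0.30 in replicates 4, 5 and 6. That of all genes tested had the same order, with 0.051, 0.066 and 0.11. The part of the ribosomal order that is shared by all genes was not tested. At NC36h the highest values were spread evenly, with 9 genes in each library. The lowest values there were less even, with 13, 5 and 9 genes in replicates 4, 5 and 6. NC24h replicate 6 also had the lowest summed FPKM of the muscle markers, 4349, and the lowest ACTA1, the skeletal muscle actin. ACTA1 stood at 1853, 1425 and 467 FPKM in NC24h replicates 4, 5 and 6 and at 5885, 5819 and 5012 in the NC36h libraries. Of the 8 muscle markers 5 were lowest and 3, MYF5, MYOD1 and CDH15, highest in that library among the NC24h libraries. The part of the muscle and fibroblast markers in the ribosomal result was not tested. Without NC24h replicate 6, 23 ribosomal protein genes were still called lower, and with median-ratio scaling as well 19 were.

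**Figure D2:**
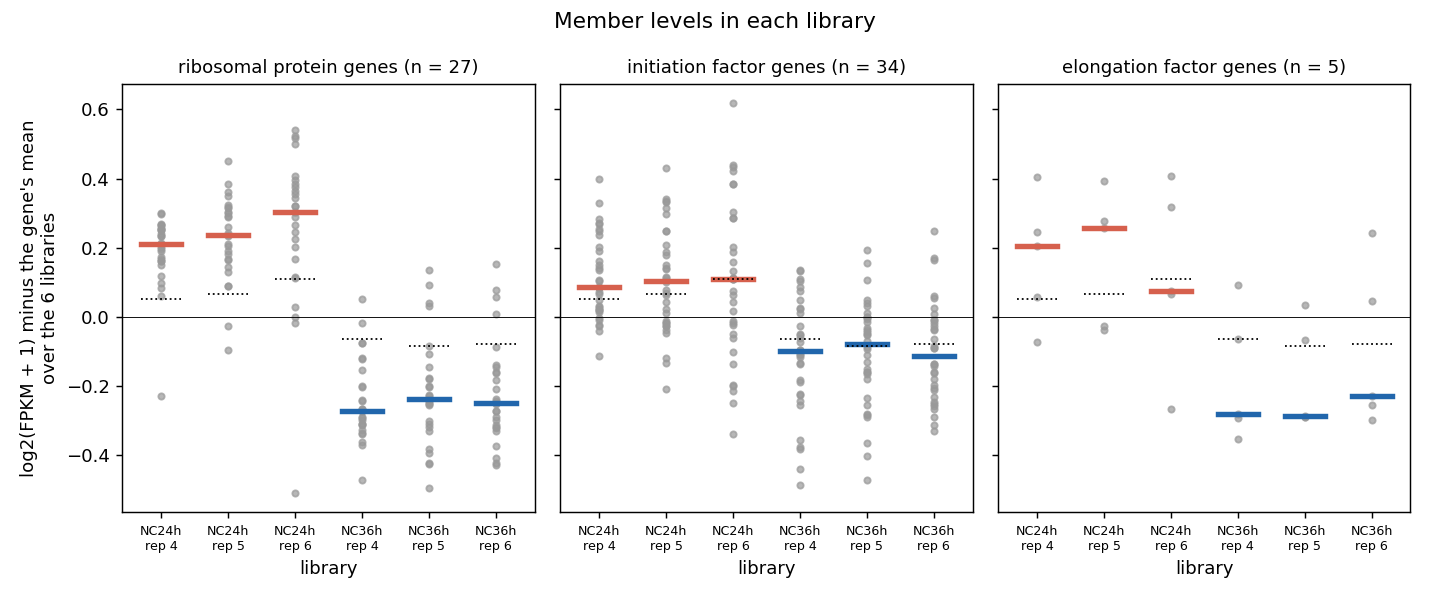
Level of each class by library, as log2(FPKM + 1) relative to the mean of each gene over the 6 libraries; points are member genes, bars their medians and dotted lines the median of all genes tested. The ribosomal medians are 0.21, 0.24 and 0.30 in the NC24h libraries and -0.27, -0.24 and -0.25 in the NC36h libraries, further apart than those of the initiation factors, 0.09 to 0.11 and -0.11 to -0.08.

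Among small subunit genes, 14 of 15 were lower at NC36h, against 34.4% of all genes, with a median log2 change of -0.61. After median-ratio scaling 12 of 15 were lower, against 22.3% of all genes, with a median of -0.44. RPS23, a protein of the decoding centre, stood at 1223, 1358 and 1405 FPKM at NC24h and at 791, 704 and 740 at NC36h. Its log2 change was -0.83 ± 0.09 (SE; limma adjusted p = 0.00108), the largest fall of the class. All 3 later values lay far under all 3 earlier ones, and NC36h reached 56.1% of the NC24h level. RPS4X, encoded on the X chromosome, showed 992, 1054 and 1173 FPKM at NC24h and 580, 600 and 645 at NC36h. It fell by 0.82 on the log2 scale (adjusted p = 0.00119), to 56.7% of its earlier level. RPS16 went from 540, 577 and 643 FPKM to 366, 334 and 333, a log2 change of -0.76 ± 0.09 (adjusted p = 0.0013).

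RPS12 was the ribosomal protein gene with the highest level, and RPS3, which sits where the mRNA enters the ribosome, came second. RPS12 stood at 2616, 2720 and 2796 FPKM at NC24h and at 1892, 1667 and 1676 at NC36h, a fall of 0.64 (adjusted p = 0.00218). RPS3 stood at 2429, 2534 and 2607 FPKM and then at 1693, 1621 and 1633, a fall of 0.61 (adjusted p = 0.00167). Both genes had gaps between the groups several times the spread within them. RPS18, a protein of the head of the small subunit, declined from 1772, 1838 and 1960 to 1199, 1199 and 1183 FPKM, by 0.64 (adjusted p = 0.00145). RPS13, a protein of the small subunit body, had a smaller fall, -0.34 (adjusted p = 0.0112), which did not pass after median-ratio scaling (adjusted p = 0.126). RPS28, one of the smallest proteins of the ribosome, was the member of this subunit that did not pass. Its values were 1173, 1195 and 1145 FPKM at NC24h and 931, 1156 and 1169 at NC36h, so the groups overlapped, with only NC36h replicate 4 clearly lower. Its log2 change was -0.12, with a 95% interval from -0.37 to 0.13 (adjusted p = 0.381).

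Of the 12 large subunit genes tested, 9 were lower at NC36h, against 34.4% of all genes, and the median log2 change was -0.41. After median-ratio scaling 6 were lower and 1 higher, against 22.3% and 23.9% of all genes, with a median of -0.23. RPL5 and RPL11, which enter the large subunit as partners and also bind the p53 regulator MDM2, both fell. RPL5 stood at 1357, 1439 and 1626 FPKM at NC24h and at 895, 860 and 851 at NC36h, a log2 change of -0.76 ± 0.09 (adjusted p = 0.00139). RPL11 stood at 1056, 1112 and 1161 FPKM and then at 779, 801 and 814, a change of -0.47 ± 0.07 (adjusted p = 0.00265). Neither gene had groups that overlapped. RPL4, which lines the exit tunnel of the new peptide, went from 824, 850 and 888 to 579, 599 and 597 FPKM, a fall of 0.53 (adjusted p = 0.00162). RPL29 went from 615, 626 and 649 to 462, 445 and 440 FPKM, a fall of 0.49 (adjusted p = 0.00172). RPL14 (-0.43), RPL27 (-0.42) and RPL38 (-0.39) also fell, the last with an adjusted p of 0.0952 after median-ratio scaling.

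The acidic proteins RPLP1 and RPLP2 form the flexible stalk of the large subunit, which recruits elongation factors. RPLP2 stood at 1094, 1095 and 1142 FPKM at NC24h and at 879, 822 and 883 at NC36h, a fall of 0.37 (adjusted p = 0.00581, and 0.0524 after median-ratio scaling). RPLP1 did not pass the test. It stood at 1896, 1757 and 1767 FPKM and then at 1696, 1827 and 1801, with a log2 change of -0.03 and a 95% interval from -0.21 to 0.16 (adjusted p = 0.807). The ranges of RPLP1 overlapped, while those of RPLP2 did not. The FPKM ratio of RPLP1 to RPLP2 within a library, a ratio that scaling of the library cannot move, was 1.73, 1.61 and 1.55 at NC24h and 1.93, 2.22 and 2.04 at NC36h.

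Of the 4 tested paralogs and relatives of ribosomal proteins, 2 were lower and 0 higher, against 34.4% and 16.5% of all genes. Over the 4 the median log2 change was -0.05 (0.12 after median-ratio scaling), and without them the class counted 21 of 23 genes lower. RPS27L, a p53-responsive relative of RPS27, stood at 31.1, 32.0 and 37.4 FPKM at NC24h and at 21.5, 24.2 and 24.5 at NC36h, a fall of 0.50 (adjusted p = 0.0053). RPL7L1, a factor of ribosome assembly, fell by 0.24 (adjusted p = 0.0457). That call was lost after median-ratio scaling (0.533) and without NC24h replicate 4 (0.12), NC24h replicate 5 (0.134), NC36h replicate 5 (0.154) or NC36h replicate 6 (0.107). RPL26L1 had an estimate of 0.15 (adjusted p = 0.512), with 146, 135 and 89.0 FPKM at NC24h and 132, 136 and 134 at NC36h. Replicate 6 alone was low in that gene. RPL36AL stood at 22.2, 24.5 and 28.4 FPKM and then at 24.8, 28.9 and 29.3, with an estimate of 0.14 (adjusted p = 0.309) that passed only after median-ratio scaling (0.31, adjusted p = 0.0455).

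The level of ribosomal protein genes varied widely between genes. Without paralogs, the highest mean FPKM, 2228 for RPS12, was 7.22 times the lowest, 309 for RPL14. The intact ribosome holds the proteins of RPS12 and RPL14 in equal or nearly equal number. Across the 27 genes the mean level and the log2 change had a Pearson r of -0.44 and a Spearman rho of -0.34. Without the 4 paralogs, which have the lowest levels, the values over 23 genes were 0.0195 and -0.115, so the relation rests on those 4. These points share the same 6 libraries and are not independent. The ribosomal protein genes lie on 12 chromosomes. In the RefSeq annotation of Sscrofa11.1, RPS23 lies at chr2:90679038-90680681, RPS4X at chrX:58149302-58155179, RPL5 at chr4:124359786-124367612 and RPS12 at chr1:30920804-30923392. Ribosomal protein genes have many near-identical processed copies in mammalian genomes, and the sources used here do not say how reads shared between copies were handled, so the level of each gene is uncertain to that extent.

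Of the 5 elongation factor genes, 3 were lower and 0 higher at NC36h, against 34.4% and 16.5% of all genes. The median log2 change was -0.56. After median-ratio scaling 3 were lower and 1 higher, against 22.3% and 23.9% of all genes, with a median of -0.39. On the deposited values 1 gene, EEFSEC, was higher without adjustment (limma p under 0.05), and limma voom called 0 higher. EEF2, the translocase that moves the ribosome by a codon, stood at 1336, 1386 and 1537 FPKM at NC24h and at 954, 947 and 942 at NC36h. It fell by 0.58 (SE 0.08; adjusted p = 0.0021), to 66.8% of its earlier level. EEF2K, the kinase that phosphorylates eEF2 and slows elongation, stood at 61.0, 60.5 and 48.25 FPKM and then at 35.6, 37.4 and 38.9. It also fell by 0.58 (SE 0.10; adjusted p = 0.00436), to 65.9%. In NC24h replicate 6, EEF2 was at its highest and EEF2K at its lowest value of that group. The ratio of EEF2 to EEF2K was 31.9 in that library, against 21.9 and 22.9 in the other NC24h libraries and 24.2 to 26.8 at NC36h, and the groups overlapped.

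EEF1B2 and EEF1D are both subunits of the complex that reloads eEF1A with GTP. EEF1B2 stood at 601, 614 and 632 FPKM at NC24h and at 413, 414 and 425 at NC36h, a fall of 0.56 (SE 0.06; adjusted p = 0.00115). EEF1D stood at 102, 95.4 and 103 FPKM and then at 93.5, 93.4 and 101, with an estimate of -0.06 and a 95% interval from -0.21 to 0.09 (adjusted p = 0.469). The ratio of EEF1B2 to EEF1D was 5.90, 6.44 and 6.16 at NC24h and 4.42, 4.43 and 4.20 at NC36h, with no overlap. EEFSEC, the factor for selenocysteine, had 5.79, 6.02 and 4.94 FPKM at NC24h and 6.62, 6.32 and 7.46 at NC36h. The groups did not overlap, but the estimate of 0.24 did not pass the test (adjusted p = 0.0829), except after median-ratio scaling (0.39, adjusted p = 0.0228) and quantile normalization (0.43, adjusted p = 0.0252). As a share of the FPKM sum, the class went from 0.377% ± 0.019 to 0.255% ± 0.001 (SD, n = 3).

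Initiation factor genes passed the test in both directions. Of the 34 tested, 15 were lower (44.1%, against 34.4% of all genes) and 2 higher at NC36h (against 16.5% of all genes). The median log2 change was -0.19, close to the -0.16 of all genes. After median-ratio scaling 8 were lower and 5 higher, against 22.3% and 23.9% of all genes, and the median was -0.024. The share of the class in the FPKM sum was 0.695% ± 0.021 at NC24h and 0.630% ± 0.003 at NC36h (SD, n = 3). Members of the same complex did not all have the same call, as the next paragraphs describe.

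The eIF4F complex binds the cap of the mRNA through eIF4E, unwinds its leader with the helicase eIF4A and is held together by the scaffold eIF4G. Of its 5 genes here, 4 were lower on the deposited values and 2 after median-ratio scaling, against 34.4% and 22.3% of all genes. EIF4A1 stood at 258, 265 and 256 FPKM at NC24h and at 140, 141 and 164 at NC36h. It fell by 0.81 (SE 0.08; adjusted p = 0.000942), to 57.1% of its earlier level. This was the largest fall of an initiation factor gene on the log2(FPKM + 1) scale, though in percent of the NC24h level, with a pseudocount of 0.1 and by voom that of EIF2AK2 was larger. Its relative EIF4A2 stood at 377, 384 and 418 FPKM and then at 244, 242 and 259, a fall of 0.66 (SE 0.07; adjusted p = 0.00107). Both helicase genes kept their calls after median-ratio scaling (adjusted p = 0.00199 and 0.002), and the ratio of EIF4A1 to EIF4A2 overlapped between the groups. EIF4A3, which belongs to the exon junction complex and not to eIF4F, had an estimate of -0.16 (adjusted p = 0.0657), which passed when NC24h replicate 6 was left out (0.0317).

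The cap-binding gene EIF4E stood at 38.1, 33.4 and 34.4 FPKM at NC24h and at 26.7, 29.7 and 29.8 at NC36h. It fell by 0.29 (SE 0.08; adjusted p = 0.0212), a call lost after median-ratio scaling (-0.12, adjusted p = 0.3) or quantile normalization (adjusted p = 0.0577), and lost when NC24h replicate 4 (0.0566), NC36h replicate 4 (0.065) or NC36h replicate 5 (0.0533) was left out. EIF4EBP1, which holds eIF4E away from eIF4G when mTORC1 is inactive, did not pass. Its values were 43.1, 38.2 and 45.1 FPKM at NC24h and 37.8, 44.9 and 41.4 at NC36h, with a 95% interval of the log2 change from -0.24 to 0.19 (adjusted p = 0.831). The ratio of EIF4E to EIF4EBP1 was 0.885, 0.873 and 0.762 at NC24h and 0.706, 0.662 and 0.72 at NC36h, without overlap. EIF4ENIF1, which carries eIF4E into the nucleus, did not pass either (-0.08, adjusted p = 0.45). EIF4E3, a relative of EIF4E, stood at 26.8, 26.9 and 27.9 FPKM and then at 16.0, 15.7 and 17.5, a fall of 0.70 (SE 0.07; adjusted p = 0.000907) that also passed after median-ratio scaling (adjusted p = 0.00168).

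The scaffold gene EIF4G1 had 148, 147 and 131 FPKM at NC24h and 142, 139 and 138 at NC36h, with an estimate of -0.02 and a 95% interval from -0.18 to 0.14 (adjusted p = 0.81). Its values overlapped, while the ratio of EIF4A1 to EIF4G1 was 1.75, 1.80 and 1.96 at NC24h and 0.984, 1.01 and 1.19 at NC36h. EIF4G3 fell by 0.26 (SE 0.06; adjusted p = 0.0126), from 50.9, 53.2 and 53.6 to 46.2, 42.8 and 42.1 FPKM. That call was lost after median-ratio scaling (adjusted p = 0.248) and without NC24h replicate 5 (0.0511) or NC36h replicate 5 (0.0574). EIF4G2, a scaffold that lacks the eIF4E site and serves cap-independent initiation, had the highest level of the class, with 732, 694 and 688 FPKM at NC24h and 731, 734 and 730 at NC36h. Its estimate was 0.05 (adjusted p = 0.499), and 0.23 after median-ratio scaling (adjusted p = 0.0343). EIF4H, a helper of the eIF4A helicase, had an estimate of -0.05 with a 95% interval from -0.19 to 0.09 (adjusted p = 0.511).

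The eIF3 complex, a large scaffold on the small subunit, was covered by 9 genes, of which 8 were tested. On the deposited values 5 were lower and 1 higher, against 34.4% and 16.5% of all genes. The median log2 change was -0.23, against -0.16 for all genes. After median-ratio scaling 2 were lower and 2 higher, against 22.3% and 23.9% of all genes, with a median of -0.058. EIF3A, the largest subunit of the complex, stood at 150, 148 and 152 FPKM at NC24h and at 107, 102 and 102 at NC36h, a fall of 0.54 (SE 0.05; adjusted p = 0.000968). EIF3E stood at 215, 208 and 210 FPKM and then at 152, 163 and 157, a fall of 0.42 (SE 0.06; adjusted p = 0.00198). These 2 calls held after median-ratio scaling (adjusted p = 0.00295 and 0.0193). The falls of EIF3H (-0.33), EIF3L (-0.23) and EIF3M (-0.22) passed on the deposited values (adjusted p = 0.00366, 0.0105 and 0.0168) but not after that scaling (adjusted p = 0.0733, 0.411 and 0.506). Without NC24h replicate 5 the calls of EIF3L (0.0508) and EIF3M (0.0676) were also lost, and without NC36h replicate 5 that of EIF3M (0.0552).

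Of the other eIF3 genes 1 was higher and 2 did not pass. EIF3D, which can itself bind the cap of some mRNAs, had 145, 140 and 128 FPKM at NC24h and 149, 145 and 142 at NC36h, an estimate of 0.08 (adjusted p = 0.323) that passed as higher after median-ratio scaling (0.26, adjusted p = 0.0312). EIF3I had an estimate of -0.03 (adjusted p = 0.844), and its value in NC24h replicate 6, 137 FPKM, lay under the 173 and 168 of the other NC24h libraries. EIF3J, a loosely bound subunit that helps to place the mRNA in the entry channel, stood at 21.9, 20.5 and 18.8 FPKM at NC24h and at 24.4, 25.2 and 25.4 at NC36h. It rose by 0.28 (SE 0.07; adjusted p = 0.0166), a call lost without NC24h replicate 5 (adjusted p = 0.0525) or NC36h replicate 5 (adjusted p = 0.0639). Within libraries the ratio of EIF3A to EIF3J was 6.87, 7.24 and 8.07 at NC24h and 4.37, 4.03 and 3.999 at NC36h, and that of EIF3E to EIF3D was 1.49, 1.49 and 1.64 and then 1.02, 1.12 and 1.11, neither with overlap.

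**Figure D3:**
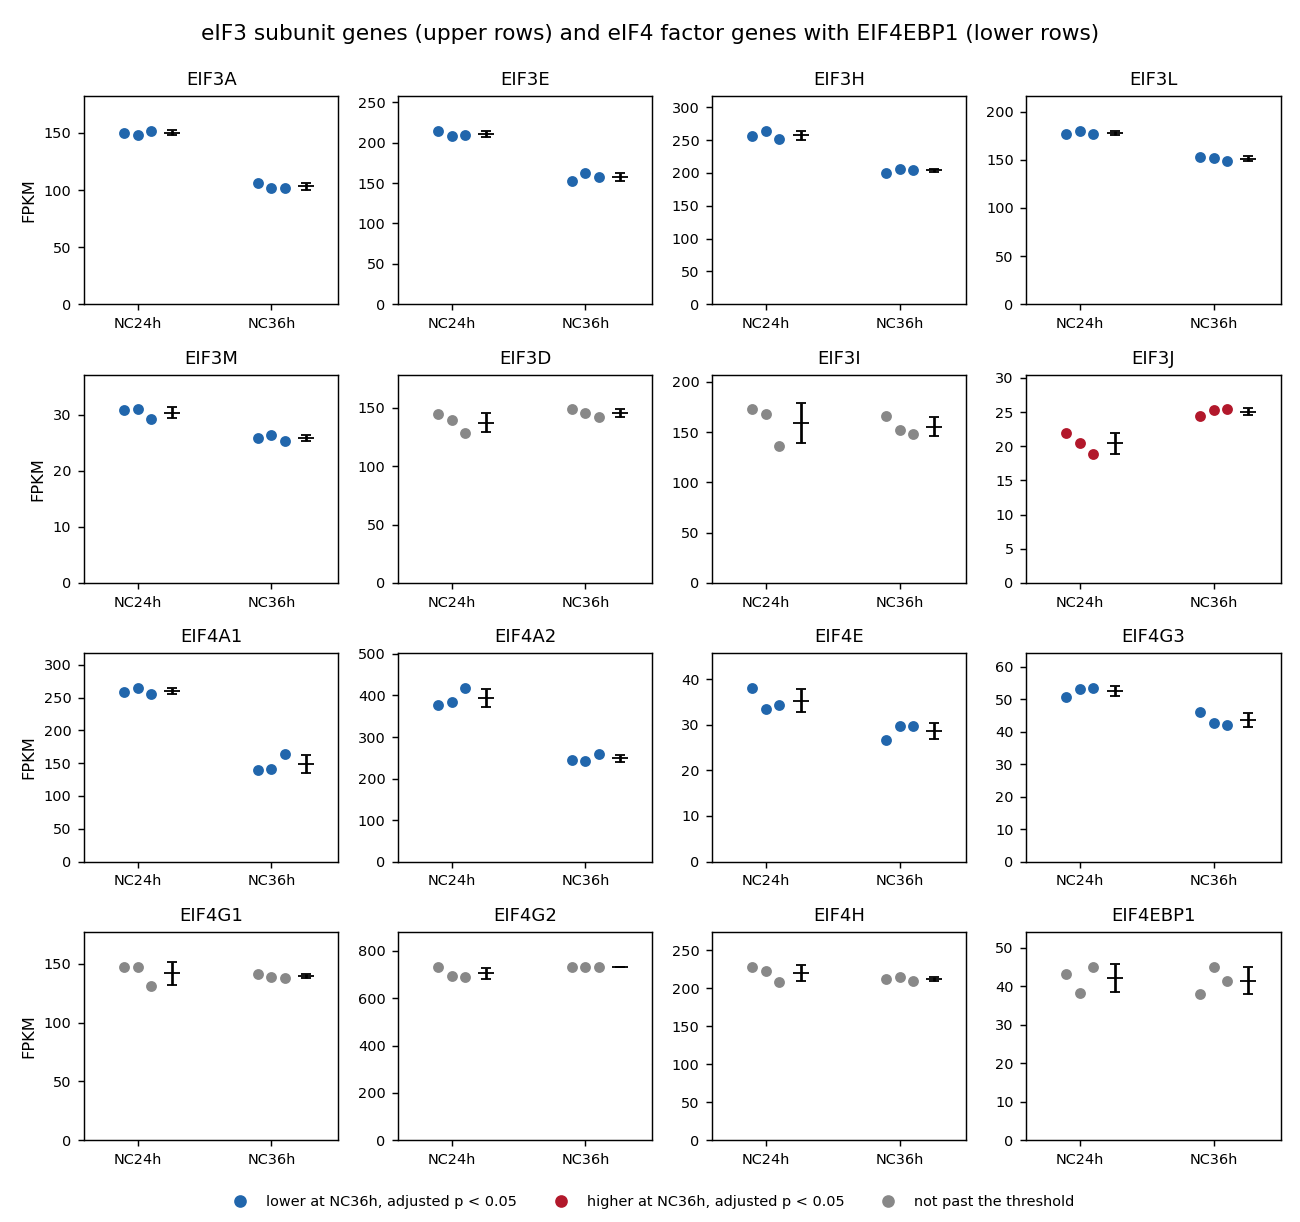
FPKM of 8 eIF3 subunit genes and 8 eIF4 genes in each NC24h and NC36h library (points), with mean and SD (bars, n = 3) and every axis from 0; colours give the limma call on the deposited values. EIF3A, EIF3E, EIF4A1 and EIF4A2 separate by several SDs, while EIF3I, EIF4G1, EIF4H and EIF4EBP1 overlap and EIF3J lies higher at NC36h.

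Initiator tRNA reaches the ribosome with eIF2, which the exchange factor eIF2B recharges with GTP and which stress kinases switch off. EIF2S2, the beta subunit and the single eIF2 subunit gene in the set, had 83.7, 77.1 and 66.9 FPKM at NC24h and 79.0, 80.4 and 80.8 at NC36h, with an estimate of 0.08 (adjusted p = 0.457). Of 4 eIF2B genes 1 was lower, against 34.4% of all genes. This gene, EIF2B3, had a log2 change of -0.35 (adjusted p = 0.0259), a call lost after median-ratio scaling (0.202). It was also lost without NC24h replicate 4 (0.0616), NC24h replicate 5 (0.0785), NC36h replicate 5 (0.0904) or NC36h replicate 6 (0.0695). EIF2B2, EIF2B4 and EIF2B5 had estimates between -0.09 and 0.04 and adjusted p-values of 0.347 to 0.731. EIF2A, a separate protein that can deliver initiator tRNA without eIF2, stood at 47.65, 49.7 and 51.7 FPKM and then at 35.4, 34.1 and 35.3, a fall of 0.49 (SE 0.06; adjusted p = 0.00144).

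Among the eIF2 kinases 1 gene of 3 was lower on the deposited values, against 34.4% of all genes. This was EIF2AK2 (PKR), which senses double-stranded RNA. It was expressed at 2.46, 3.26 and 4.27 FPKM at NC24h and at 1.64, 1.87 and 1.76 at NC36h, a fall of 0.63 (SE 0.16; adjusted p = 0.0179). The call was lost without NC24h replicate 5 (adjusted p = 0.0533), NC36h replicate 4 (0.0577) or NC36h replicate 5 (0.0508), and on this scale the fold change of so low a gene is understated. EIF2AK1 (HRI), the kinase known for sensing heme, had 16.4, 17.9 and 20.3 FPKM and then 15.6, 15.7 and 13.7. The estimate was -0.26 (adjusted p = 0.0618), which passed without NC24h replicate 4 (adjusted p = 0.0368). EIF2AK3 (PERK), the kinase of the endoplasmic reticulum, had an estimate of -0.22 (adjusted p = 0.238), with 6.63, 7.32 and 10.2 FPKM at NC24h and 6.51, 6.54 and 6.90 at NC36h.

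Factors that act at the start codon and at subunit joining gave both directions. EIF1, which guards the choice of the start codon, was the second gene that rose. It stood at 536, 472 and 432 FPKM at NC24h and at 600, 626 and 649 at NC36h, a log2 change of 0.38 ± 0.09 (SE; adjusted p = 0.0143). Its groups did not overlap, and the call was lost without NC24h replicate 5 (adjusted p = 0.0529) or NC36h replicate 5 (adjusted p = 0.053). Its close relative EIF1B had 77.0, 81.8 and 81.9 FPKM and then 72.6, 67.5 and 75.4, with an estimate of -0.16 (adjusted p = 0.0821). The ratio of EIF1 to EIF1B was 6.97, 5.78 and 5.27 at NC24h and 8.25, 9.26 and 8.61 at NC36h.

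EIF5B, the GTPase that joins the subunits, stood at 39.5, 37.6 and 34.9 FPKM at NC24h and at 29.1, 29.1 and 30.05 at NC36h, a fall of 0.33 (SE 0.07; adjusted p = 0.0066, and 0.12 after median-ratio scaling). EIF6, which keeps the large subunit from joining too early, had 109, 102 and 90.5 FPKM and then 112, 105 and 109. Its estimate was 0.12 (adjusted p = 0.264) and 0.29 after median-ratio scaling (adjusted p = 0.0394). EIF1AD, named for a domain it shares with eIF1A, fell by 0.70 (SE 0.08; adjusted p = 0.00153), from 8.42, 8.76 and 9.51 to 4.71, 5.36 and 5.16 FPKM. EIF2D, an initiation factor outside the main eIF2 route, had an estimate of -0.10 (adjusted p = 0.228).

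**Figure D4:**
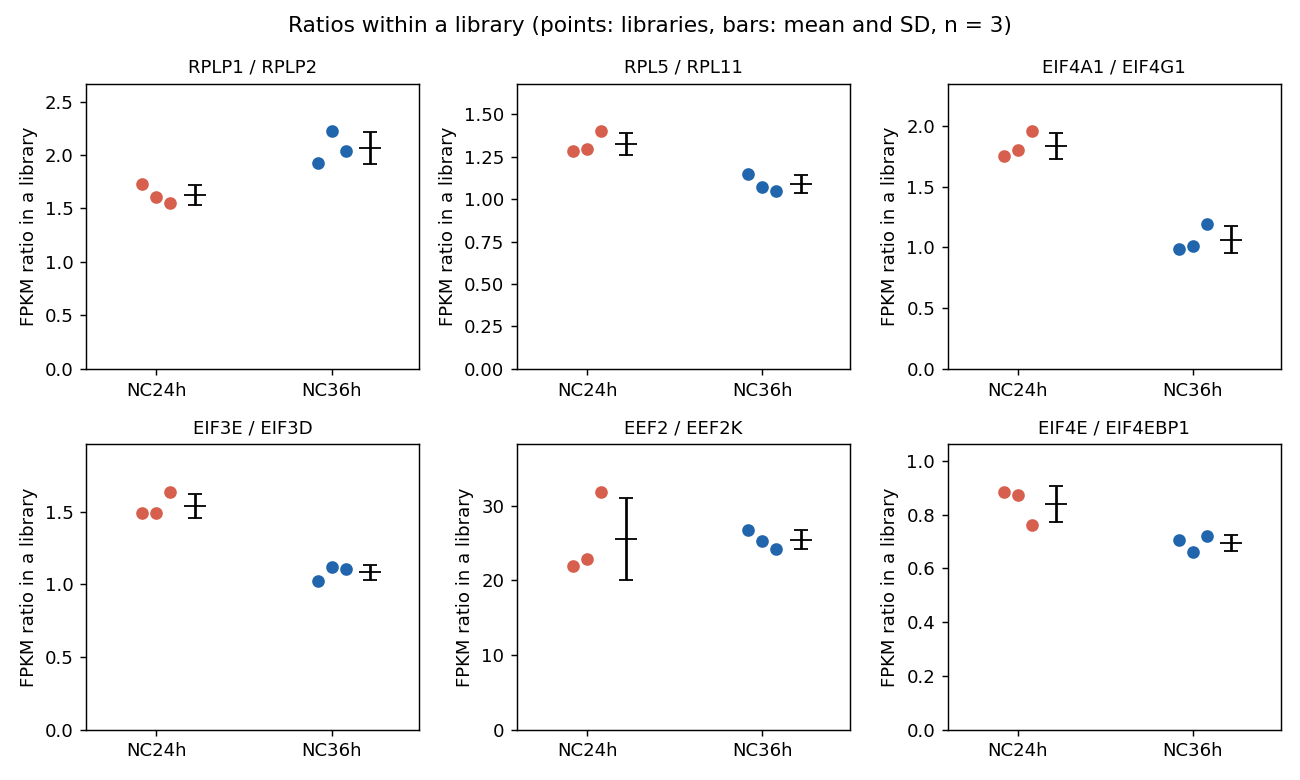
FPKM ratio of paired members within each library (points) with mean and SD (bars, n = 3); every axis starts at 0. The ratios RPLP1 to RPLP2, RPL5 to RPL11, EIF4A1 to EIF4G1, EIF3E to EIF3D and EIF4E to EIF4EBP1 separate the groups, whereas EEF2 to EEF2K overlaps, with NC24h replicate 6 at 31.9.

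The ratios were chosen after the values were seen and carry no test. Since both genes of a ratio share the scale of their library, a shifted ratio shows unequal change of the pair and does not say which gene moved. RPL5 to RPL11 was 1.29, 1.29 and 1.4 at NC24h and 1.149, 1.07 and 1.05 at NC36h, although both genes were called lower. The later ratio was 0.821 of the earlier one in that pair, 1.27 for RPLP1 to RPLP2, 0.579 for EIF4A1 to EIF4G1 and 0.996 for EEF2 to EEF2K.

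The symbol rule does not reach all translation genes. Of 5 ribosome and TOP genes named otherwise that were tested, 3 were lower and 1 higher, against 34.4% and 16.5% of all genes. The median log2 change was -0.30. After median-ratio scaling 2 were lower and 2 higher, against 22.3% and 23.9% of all genes, with a median of -0.13. RACK1, a scaffold on the small subunit, went from 1321, 1321 and 1357 FPKM at NC24h to 935, 943 and 966 at NC36h, a fall of 0.49 (adjusted p = 0.00197). PABPC1, the main cytoplasmic poly(A)-binding protein and a TOP mRNA, stood at 404, 443 and 520 FPKM and then at 219, 231 and 247. It fell by 0.96 (SE 0.10; adjusted p = 0.00118), a larger estimate than that of any member. PABPC4 rose by 0.17 (adjusted p = 0.0472), from 163, 161 and 157 to 188, 179 and 174 FPKM. That call was lost when any 1 of the 6 libraries was left out (adjusted p from 0.0605 to 0.125). After median-ratio scaling of all 6 libraries the estimate of PABPC4 was 0.34 (adjusted p = 0.00592). BTF3, a nascent chain factor, fell by 0.30 (adjusted p = 0.00726, and 0.159 after median-ratio scaling). FAU, a fusion gene for a small subunit protein, was listed at only 9.97 to 12.03 FPKM and did not pass on the deposited values (0.12, adjusted p = 0.215), but did after median-ratio scaling (0.28, adjusted p = 0.0198) and quantile normalization (adjusted p = 0.0165).

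Of the 8 termination and recycling genes 7 were tested, and limma called 3 lower and 0 higher, against 34.4% and 16.5% of all genes. Voom also called 0 higher, as did limma with p left unadjusted. After median-ratio scaling 1 was lower and 1 higher, against 22.3% and 23.9% of all genes. ABCE1, which splits the ribosome after termination, fell by 0.48 (adjusted p = 0.00235), from 53.7, 49.4 and 46.5 to 35.1, 35.3 and 35.9 FPKM. The release factor ETF1 fell by 0.33 (adjusted p = 0.0122) and the recycling factor DENR by 0.24 (adjusted p = 0.0175), neither passing after median-ratio scaling (adjusted p = 0.185 and 0.371). ETF1 also did not pass without NC36h replicate 5 (0.0533), nor DENR without NC24h replicate 4 (0.051) or NC36h replicate 5 (0.077). GSPT2 did not pass on the deposited values (0.24, adjusted p = 0.117), but was higher after that scaling (0.40, adjusted p = 0.0211) or quantile normalization (adjusted p = 0.0115). With NC24h replicate 6 left out it passed as well (0.0165), and so did GSPT1 (0.00606) and PELO (0.00601), both lower. GSPT1 also passed as lower with the replicate number as a block in limma (adjusted p = 0.048).

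Among 13 tested genes of the mTORC1 pathway and its effectors, 4 were lower and 3 higher, against 34.4% and 16.5% of all genes. The median log2 change was 0.04. After median-ratio scaling 2 were lower and 5 higher, against 22.3% and 23.9% of all genes, with a median of 0.19. RHEB, the GTPase that activates mTORC1, stood at 77.5, 80.8 and 92.7 FPKM at NC24h and at 56.1, 54.0 and 50.4 at NC36h, a fall of 0.63 (adjusted p = 0.00195). AKT1S1, an inhibitory subunit of mTORC1, stood at 41.4, 43.3 and 43.7 FPKM and then at 60.5, 79.4 and 79.9, a rise of 0.75 (adjusted p = 0.00273). LARP1, the repressor that binds TOP mRNAs, fell by 0.37 (adjusted p = 0.00402, and 0.0535 after median-ratio scaling). RRAGC (-0.39, adjusted p = 0.00263) and RRAGA (-0.24, adjusted p = 0.00879) fell, and RRAGD (0.67, adjusted p = 0.035) and RPTOR (0.30, adjusted p = 0.0284) rose. Both rises were lost without replicate 5 of either group (adjusted p = 0.0596 and 0.089 for RRAGD, 0.0861 and 0.0982 for RPTOR), RRAGD also without NC24h replicate 6 (0.0568) or NC36h replicate 4 (0.103), and RPTOR without NC24h replicate 4 (0.059) or NC36h replicate 6 (0.0793). The call of RRAGA did not hold after median-ratio scaling (adjusted p = 0.361). MTOR itself had 13.0, 13.1 and 13.9 FPKM at NC24h and 13.8, 13.0 and 12.4 at NC36h, with an estimate of -0.02 (adjusted p = 0.805).

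Tested members had between 51 and 80863 fragments in a library, and 65 of the 66 had at least 100 in every library.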

How the data were processed

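RNA-seq values of 6 libraries of PSCs were analysed. The authors mapped the reads to the pig genome (Sscrofa11.1), counted them per gene and deposited FPKM values. Their methods name HISAT2, StringTie and HTSeq, whereas the labels name TopHat2, Cufflinks and HTSeq; strandedness is not given in the sources used here. Fragments were recovered from the steps of the FPKM values, which came out whole (tolerance 0.01) for 19543 of the 19543 genes that were above 0 in 3 or more libraries. FPKM values are not counts, so limma 3.58.1 (R 4.3.3; eBayes with trend, two-sided) was run on log2(FPKM + 1) of the 14060 genes whose mean FPKM reached 1. P-values were adjusted by Benjamini-Hochberg over all of them, with a threshold of 0.05, and 95% intervals are unadjusted. The script was tested on simulated data.

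Symbols were paired with 11804 of the 25322 Ensembl identifiers, and members without one were not analysed here. In each class the 4 largest rises and falls among called genes, the 3 highest levels and 43 genes listed by role, of which 22 had a row, were named. Further eIF genes and the smallest falls were added after their values were seen. The values of 1 ribosomal protein gene are not reported here, though it is in the counts. Members and lists were chosen with earlier results of these data known. Coordinates are those of RefSeq genes with the same symbol, found for all 69 members. Alternatives were a pseudocount of 0.1, median-ratio scaling, no filter, a minimum mean FPKM of 5, no trend, quantile normalization, the replicate number as a block, voom, the class without paralogs, and leaving out each library; median-ratio scaling without NC24h replicate 6 was added after seeing the data.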

Additional observations from a re-analysis of the deposited data

How the results depend on the processing

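Median-ratio scaling gave 1 ribosomal protein gene higher in place of 0, 8 initiation factor genes lower in place of 15 and 5 higher in place of 2, and 1 elongation factor gene higher in place of 0. The median log2 changes were then -0.31 for ribosomal, -0.0243 for initiation and -0.39 for elongation factor genes. With NC24h replicate 6 also left out, 1 ribosomal, 5 initiation and 1 elongation factor genes were higher, and the medians were -0.30, -0.0123 and -0.37. Quantile normalization gave 1 elongation factor gene higher. The initiation factor median was -0.11 with quantile normalization, -0.16 with a minimum mean FPKM of 5 and -0.16 with no filter. Leaving out 1 library at a time gave 21 to 23 ribosomal and 10 to 16 initiation factor genes lower and 0 to 2 initiation factor genes higher (0 without replicate 5 of either group), medians of -0.51 to -0.45 for ribosomal and -0.20 to -0.16 for initiation factor genes, and 4889 to 7336 called genes in all. Of the 43 members called, 34 remained without NC36h replicate 5, 35 without NC24h replicate 5 and 31 after median-ratio scaling. The cause of these shifts was not tested.

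With the replicate number as a block, 7034 of all genes were called, and the same 43 members were called as without it (41 lower and 2 higher). Deviations of same-numbered libraries correlated at 0.15, -0.02 and 0.18, so the numbers were not taken as pairs. Voom on the recovered fragments called 7242 genes and the same 43 members. None of the 35 genes named by the rule reversed its call under the alternatives tried, but some lost or gained one. The call was lost in 6 of 15 settings for EIF4E, in 4 of 15 for EIF4G3 and in 4 of 14 for EIF2AK2. EIF1 and EIF3J lost theirs in 2 settings, and EIF5B and RPLP2 in 1. EIF2AK1, EIF4G2 and EIF6 gained a call in at least 1 setting. The 3 libraries per group limit the precision.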
